A study of Rosa rugosa with 9 samples.

Results

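MYB transcription factors of Rosa rugosa 'Zizhi' roots were described across 3 levels of phosphate and humic acid supply. They were the genes whose Swiss-Prot description in the authors' deposited table holds the words transcription factor MYB, Myb-related protein or MYB family. Of 47983 genes in the table, 146 matched these words. The MYB123 gene Rru06G055700 was set aside, and 0 genes described as PHR1-LIKE or phosphate starvation response were among the matches, which left 145 members. A Pfam domain entry in the deposited annotation named a Myb-like DNA-binding domain in 133 of them and the MYB-CC domain in 9, and 3 had no Pfam entry.

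MYB proteins bind DNA through repeats of a helix-turn-helix fold. In plants the R2R3 class, with a pair of such repeats, is the largest, and its subgroups are known from Arabidopsis for the control of phenylpropanoid and flavonoid synthesis, secondary walls, the endodermis and suberin of the root, epidermal cell fate and responses to drought, cold and abscisic acid. MYB3R proteins act in the cell cycle, and single-repeat proteins in sugar, cold and drought responses. The GARP family carries a related domain and holds PHR1, the regulator of phosphate starvation genes, with its relatives.

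The plants were 1-year-old 'Zizhi' roses grown in pots of sand in a greenhouse and watered weekly for 37 weeks with 200 ml of Hoagland's solution, which all groups shared. The CK solution carried 0.092 g of NH4H2PO4 without humic acid. For HA1 this was 0.0552 g of NH4H2PO4, 60% of the control phosphorus, together with 0.0368 g of humic acid, and for HA2 it was 0.0368 g of NH4H2PO4, 40% of the control phosphorus, together with 0.0552 g of humic acid. Phosphorus, ammonium and humic acid changed together, so their parts cannot be told apart. Polyadenylated RNA of tender roots was sequenced in 3 libraries per group. The labels do not say that the libraries of a group came from separate plants, so p-values speak only of the spread between these libraries, which may be technical.

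Each library held 33847262 to 42988605 counts, and the 10 genes with most reads held 4.55% to 5.71% of the total. The 6 casparian strip membrane protein genes, which mark the root endodermis, were counted, with 0 of 6 at 0 in every library, and their summed level lay between 35.9 and 124 CPM (counts scaled to the depth of the library and corrected by TMM, the trimmed mean of M values). Photosynthesis genes, 37 in all with 5 at 0 in every library, summed to 112, 187 and 225 CPM under CK, 113, 108 and 80.4 under HA1 and 49.4, 94.7 and 145 under HA2. Their part in the differences below was not tested. Relative to the mean of all 9 libraries on the log2 scale, the median MYB gene lay at -0.25 in HA2 replicate 3 and at -0.17 in HA1 replicate 1, and between -0.06 and 0.12 in the other libraries. The median of all genes lay between -0.00 and 0.03 in every library. In these bulk samples, fewer cells of a type and less RNA per cell cannot be told apart.

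The members were grouped by the number in their Swiss-Prot name into 10 role groups, and 27 stayed unplaced. In all 67 names were in use, 99 of the 145 genes were named after an Arabidopsis protein and 19 after a protein of Crocosmia x crocosmiiflora. The same name was also in the description of the closest protein in the deposited annotation for 57 members. Among the 22 members called in HA1 against CK below, this held for 8. A further 8 members were placed in an R2R3 group by the number of a protein from a species other than Arabidopsis or Antirrhinum, where the number need not mean the same subgroup. Roles below are those of the named protein in its own species, as background, and were not measured here.

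Of the 145 members, 31 had 0 counts in every library, 26 were counted but too low to be tested, and 88 were tested. The 57 untested members reached at most 0.861 CPM in any library and summed to at most 2.10 CPM. They were spread unevenly over the groups. All 7 genes named after the Arabidopsis activators of anthocyanin and flavonol synthesis (MYB75, MYB90 and MYB12) were untested, 3 of them with 0 counts in every library, and together they reached at most 0.329 CPM. A count of 3, below which a level cannot be told from 0, was 0.0637 to 0.0903 CPM over the libraries, which covers counting error only. In the same libraries the flavonoid synthesis enzymes summed to between 783 and 4704 CPM. These 7 genes were picked by name alone, and tested members outside them had closest proteins described as flavonoid regulators. Among these were MYB123 (Rru02G009690, anthocyanin regulatory C1 protein-like), at 1.78 to 12.6 CPM, and MYB1 (Rru02G009670, TT2-like), at 0.755 to 6.90 CPM. Of the 20 genes named MYB1, 10 were at 0 in every library and 7 were tested. Of the 7 genes named MYB106, after an Arabidopsis regulator of cuticle and epidermal cell shape, 1 was tested.

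Levels per gene length are given as the authors' FPKM (fragments per kilobase of transcript, scaled to the depth of the library). The mean over 9 libraries was at least 10 FPKM in 24 members and at least 1 FPKM in 66. Stress-response genes of the R2R3 class took most of the highest places. MYB44 (Rru06G059270), named after an Arabidopsis factor of abscisic acid and stress responses, had the highest mean, at 228 FPKM with a range of 85.5 to 407. MYB3 (Rru01G036890), named after an Arabidopsis repressor of phenylpropanoid genes, followed at 225 FPKM with a range of 61.5 to 625. MYB73 (Rru06G057890), a relative of MYB44, lay at 186 FPKM. The ranges of these 3 genes over the libraries overlapped, so their order is not firm. The next were MYB78 (Rru03G033970) at 148, a second MYB44 gene (Rru06G008830) at 127 and MYBS3 (Rru02G046960) at 104 FPKM. MYBS3 is known in rice as a repressor of sugar-starvation genes. MYB59 (Rru05G055810), MYB14 (Rru06G039670), MYB1R1 (Rru07G003040) and MYB15 (Rru02G068250) followed at 74.0, 66.6, 61.2 and 38.9 FPKM.

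**Figure D1:**
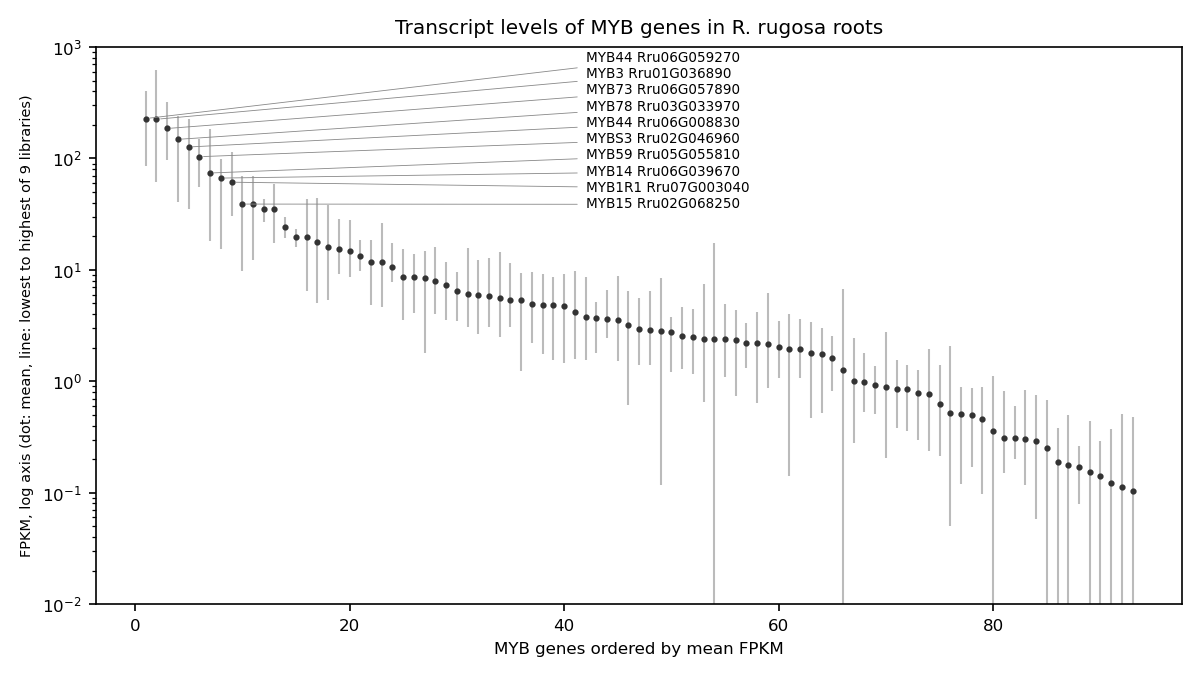
Levels of the 93 MYB genes with a mean of at least 0.1 FPKM, in order of the mean, on a log axis. Dots are the mean of 9 libraries and lines run from the lowest to the highest library, with values under 0.01 drawn at 0.01; the 10 genes with the highest mean, from MYB44 at 228 FPKM to MYB15 at 38.9, are named.

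Summed over all 145 members, the level was 3137, 2549 and 2622 CPM under CK, 1554, 1985 and 2185 CPM under HA1 and 2308, 2701 and 2755 CPM under HA2. The HA1 libraries were the lowest and lay below every CK and every HA2 library, and the CK and HA2 libraries overlapped. The 3 genes with the highest mean FPKM made up a large part of the sum. Without them the sums were 1772, 1613 and 1622 CPM under CK, 1212, 1433 and 1473 under HA1 and 1499, 1759 and 1691 under HA2, and HA1 again lay below the other groups. As a share of all counts, without TMM scaling, the members took 0.266% to 0.371% in CK, 0.159% to 0.196% in HA1 and 0.217% to 0.263% in HA2. On that scale HA2 no longer overlapped CK. By role, the R2R3 stress group gave the largest part, at 1202, 1247 and 1274 CPM under CK, 513, 881 and 886 under HA1 and 904, 1296 and 1733 under HA2. These sums are descriptions, with no test.

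**Figure D2:**
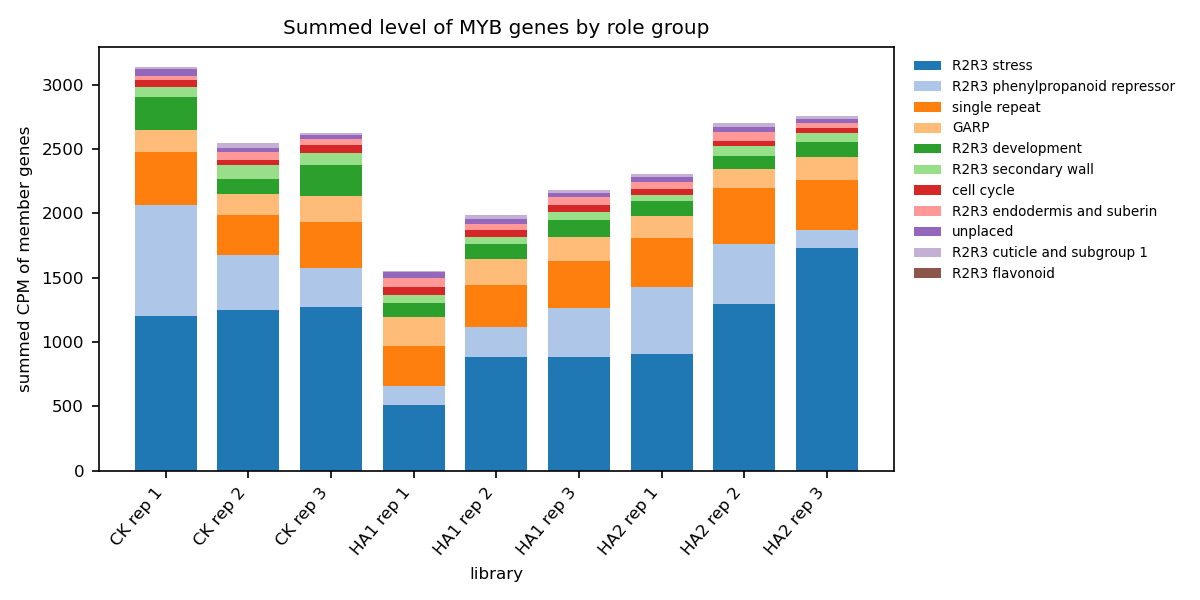
Summed CPM of the 145 MYB genes in each library, stacked by role group. The HA1 libraries stand at 1554 to 2185 CPM, below the CK libraries at 2549 to 3137 and the HA2 libraries at 2308 to 2755.

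HA1 set against CK addresses how roots differ when 40% of the phosphorus is replaced by humic acid. In the quasi-likelihood test of edgeR, with p-values adjusted by Benjamini-Hochberg over all 25260 genes tested and called under 0.05, 22 of the 88 tested members passed (25%, where 21.2% of all tested genes passed). Of these, 8 rose in HA1 (9.09%, against 10.9% of all genes) and 14 fell (15.9%, against 10.3%). With total count scaling, where the median gene of all tested lay at -0.31, 6 rose (6.82%, against 6.25% of all genes) and 23 fell (26.1%, against 18.4%). At an unadjusted p under 0.05 there were 39 members (44.3%, against 38.4%). The 3 values of each group did not overlap in 38 members (43.2%, against 45%). DESeq2, a second count test, called 33 of 87 members (37.9%, against 30.5%). The median log2 fold change over the 88 members was -0.32, beside -0.02 over all genes tested. The counts of the role groups and of other gene lists in HA1 are to be read beside the same 10.9% of all genes that rose and 10.3% that fell.

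The adjusted p of the 22 calls lay between 0.00672 and 0.0496, and leaving out some single libraries ended many of them. Without CK replicate 1, 0 of the 22 passed, with adjusted p from 0.0506 to 0.156, and 0 of all genes passed. Without CK replicate 3, 2 were kept. Leaving out HA1 replicate 1, 2 or 3 kept 5, 4 and 9, and leaving out CK replicate 2 or HA2 replicate 2 kept 18 and 17. Without CK replicate 2, 24.4% of all genes passed. For CK replicate 3, the HA1 libraries and HA2 replicate 2 the share of all genes is not given. Those counts, and the same counts by role group below, describe the settings and not a trait of the members. By DESeq2, 19 of the 22 were also called without CK replicate 1. The log2 fold change of each of the 22 stayed within 1.44 times its main value in every alternative run. The values of HA1 and CK did not overlap in 21 of the 22, with MYB59 as the exception. According to the authors' deposited table, 10 members were up and 15 down in HA1 of 71 with an entry. The FDR limit was 0.01 and the fold limit 2, and 18.7% of all genes with an entry were called. Of these 25 members, 19 also passed edgeR. The rest did not pass edgeR. MYB4 (Rru05G004850), MYB102 (Rru05G005060) and MYB62 (Rru07G007760) were up in the authors' calls. MYB44 (Rru06G059270), Myb-related protein 2 (Rru03G043860) and MYB1 (Rru02G009670) were down.

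**Figure D3:**
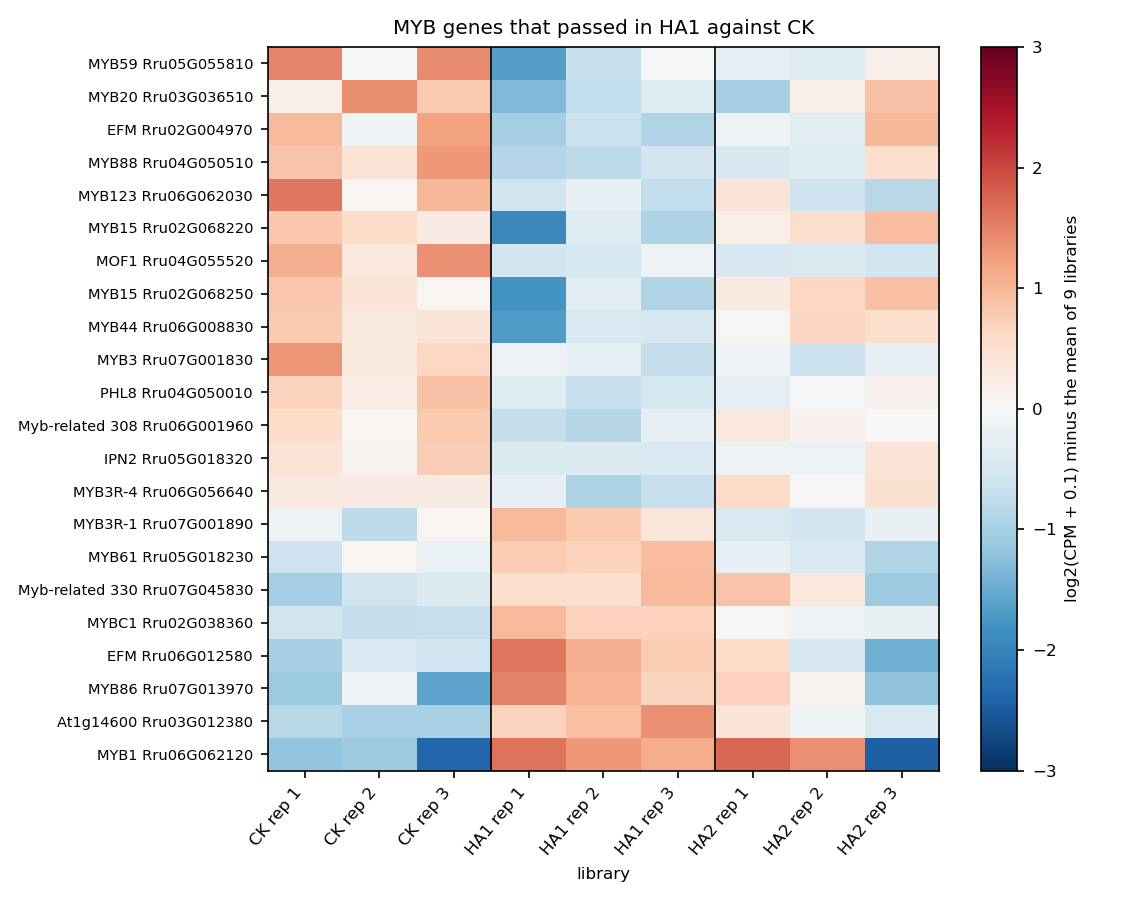
The 22 MYB genes that passed in HA1 against CK, in each library, as log2 of CPM plus 0.1 minus the mean of the 9 libraries (color), ordered by log2 fold change. The 14 genes that fell are above the 8 that rose, and HA2 replicate 3 is blue for MYB86, MYB1 and the EFM gene Rru06G012580, which are red in the HA1 libraries.

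**Figure D4:**
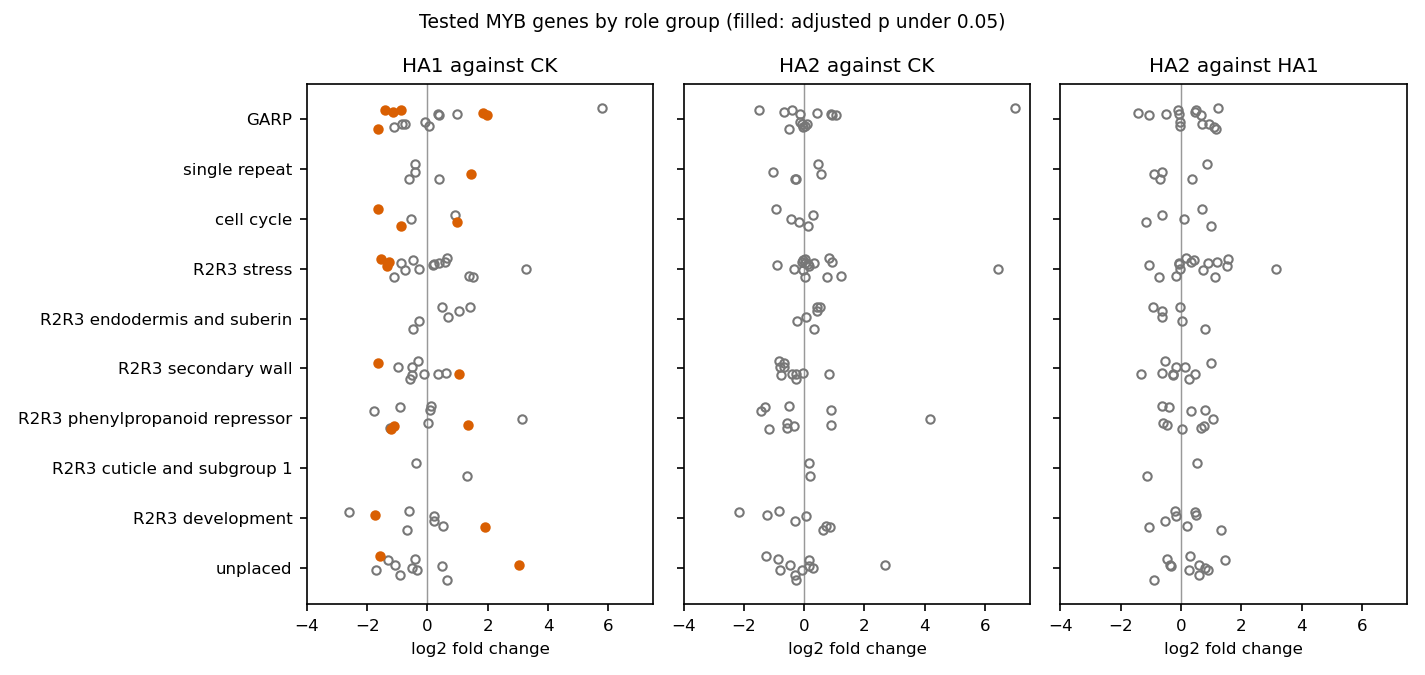
Log2 fold changes of the 88 tested MYB genes by role group in the 3 comparisons, with genes past an adjusted p of 0.05 filled and points spread vertically so that they can be told apart. Filled points appear for HA1 against CK, 8 to the right of 0 and 14 to the left, and in neither comparison of HA2.

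The R2R3 stress group held 18 genes, of which 16 were tested, and 0 rose and 3 fell in HA1. All 3 were lowest in HA1 replicate 1. MYB44 (Rru06G008830) lay at 230.1, 165 and 174 CPM under CK, 41.5, 97.5 and 94.7 under HA1 and 137, 208 and 194 under HA2. Its HA1 libraries were all below its CK libraries and its HA2 libraries overlapped CK. It fell by 1.28 ± 0.33 on the log2 scale (± SE, 3 libraries per group) with an adjusted p of 0.0296. MYB15 is known in Arabidopsis for cold responses and for lignin made in defence. The MYB15 gene Rru02G068250 lay at 75.9, 56.2 and 45.0 CPM under CK, 12.5, 34.2 and 22.8 under HA1 and 51.8, 65.9 and 80.1 under HA2, and fell by 1.35 ± 0.36 under HA1. A neighbouring name in the table, Rru02G068220, also MYB15, lay at 10.3, 8.65 and 7.03 CPM under CK, 1.46, 4.54 and 3.04 under HA1 and 6.79, 8.63 and 11.4 under HA2, and fell by 1.53 ± 0.39. Both had HA1 values below all CK values, and HA2 values that overlapped CK. Their adjusted p were 0.0315 and 0.0286. The closest protein of both is described as MYB4-like and comes from the same rose gene, so reads may have been shared between them and their separate values are uncertain. Without CK replicate 1 or 3 or HA1 replicate 1 or 3, 0 of the 3 calls were kept, with adjusted p up to 0.101, and without HA1 replicate 2 there were 2.

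The other abundant stress genes did not pass by edgeR. The second MYB44 gene (Rru06G059270) lay at 417, 365 and 520.4 CPM under CK, 136, 238 and 231 under HA1 and 267, 372 and 682 under HA2. HA1 was below CK in every library, but the difference of -1.11 ± 0.37 had an adjusted p of 0.0603 by edgeR. The authors' deposited DESeq2 result called it down, with an FDR of 0.00185. MYB78 (Rru03G033970), of the subgroup of the Arabidopsis wounding and pathogen-response factor MYB108, lay at 168, 225 and 123 CPM under CK and 39.9, 140.0 and 102 under HA1, which overlapped (adjusted p = 0.206). MYB73 (Rru06G057890), at 125, 175 and 228 CPM under CK and 112, 118 and 154 under HA1, also overlapped (adjusted p = 0.402). MYB14 (Rru06G039670) ranged from 15.9 to 118 CPM within CK alone, wider than its HA1 values of 76.2, 113 and 93.4. MYB62, known in Arabidopsis as a factor of phosphate starvation and gibberellin responses, is named here after its values were seen. Its tested gene (Rru07G007760) lay at 1.06, 1.56 and 1.51 CPM under CK, 2.67, 3.28 and 4.91 under HA1 and 5.25, 3.63 and 0.731 under HA2. All HA1 values were above CK, and HA2 replicate 3 was the lowest of the 9 libraries. The adjusted p in HA1 against CK was 0.118 by edgeR, while the authors' deposited DESeq2 result called it up, with an FDR of 0.00116.

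In the GARP family 15 of 19 genes were tested, and 2 rose and 4 fell, where 21.2% of all tested genes passed. Its genes went both ways, and the pair described as EFM, an Arabidopsis repressor of flowering, did so under the same name. The EFM gene Rru06G012580 lay at 19.4, 27.8 and 25.3 CPM under CK, 117, 80.4 and 65.5 under HA1 and 57.0, 27.0 and 14.1 under HA2, and rose by 1.86 ± 0.46 under HA1 (adjusted p = 0.0254). The EFM gene Rru02G004970 lay at 14.7, 6.78 and 17.4 CPM under CK, 3.65, 4.78 and 3.96 under HA1 and 6.67, 5.91 and 15.1 under HA2, and fell by 1.65 ± 0.44 (adjusted p = 0.0312). Neither overlapped between CK and HA1. The closest protein is described as EFM for the second gene and as HHO5-like, another member of that small family, for the first. A gene described as the putative MYB family factor At1g14600 (Rru03G012380), whose closest protein is described as the putative response regulator ARR21, lay at 2.12, 1.93 and 1.93 CPM under CK, 6.21, 7.31 and 10.2 under HA1 and 5.08, 3.52 and 2.80 under HA2. CK was below every HA1 and every HA2 library. It rose by 1.98 ± 0.29 under HA1 (adjusted p = 0.00973) and was at 0.93 ± 0.29 under HA2 against CK, which did not pass (adjusted p = 0.149).

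Of the GARP genes that fell, MOF1 (Rru04G055520) is named after a rice regulator of floret number, and its closest protein is described as KAN1-like, of a family that acts in organ polarity. It lay at 19.6, 11.5 and 24.0 CPM under CK, 6.12, 6.35 and 8.24 under HA1 and 6.58, 6.74 and 6.14 under HA2. Both treated groups lay below all CK libraries. It fell by 1.41 ± 0.27 under HA1 (adjusted p = 0.0140), and the value in HA2 against CK, -1.50 ± 0.27, did not pass (adjusted p = 0.132). PHL8 (Rru04G050010), named for its likeness to the phosphate starvation regulator PHR1, lay at 13.3, 9.75 and 15.3 CPM under CK, 6.46, 5.12 and 5.71 under HA1 and 6.76, 8.10 and 9.14 under HA2. HA1 and HA2 were below CK in every library. PHL8 fell by 1.15 ± 0.22 under HA1 (adjusted p = 0.0145) and was at -0.68 ± 0.22 under HA2 against CK (adjusted p = 0.159). IPN2 (Rru05G018320) is named after a nodulation protein of Lotus japonicus, and its closest protein is described as APL. It was chosen after its values were seen, as the remaining call of the group, and fell by 0.88 ± 0.22 (adjusted p = 0.0268). Of the 6 GARP calls, 0 were kept without CK replicate 1, with adjusted p from 0.0506 to 0.0927, 1 on leaving out CK replicate 3 or HA1 replicate 2, 3 on leaving out HA1 replicate 1 and 4 on leaving out HA1 replicate 3. The call of At1g14600 ended in 1 of these settings, without CK replicate 1.

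Of 6 single-repeat genes, 5 were tested and 1 rose. MYBC1 (Rru02G038360), known in Arabidopsis as a negative factor of freezing tolerance, lay at 17.3, 16.1 and 16.4 CPM under CK, 51.7, 42.3 and 42.9 under HA1 and 26.8, 23.6 and 22.4 under HA2. The 3 groups did not overlap, with HA2 between CK and HA1. It rose by 1.46 ± 0.15 under HA1, and its adjusted p of 0.00672 was the lowest of the members. The call ended without CK replicate 1, at an adjusted p of 0.0506, and was kept without any 1 of the other 8 libraries. In HA2 it was 0.55 ± 0.15 above CK and 0.91 ± 0.15 below HA1 on the log2 scale, which did not pass (adjusted p = 0.135 and 0.176). MYBS3 (Rru02G046960) lay at 221, 213 and 127 CPM under CK and 101, 157 and 164 under HA1, and MYB1R1 (Rru07G003040), named after a potato factor of drought tolerance, at 85.2, 38.1 and 96.9 under CK and 40.9, 34.4 and 67.7 under HA1. Both overlapped between the groups and did not pass.

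**Figure D5:**
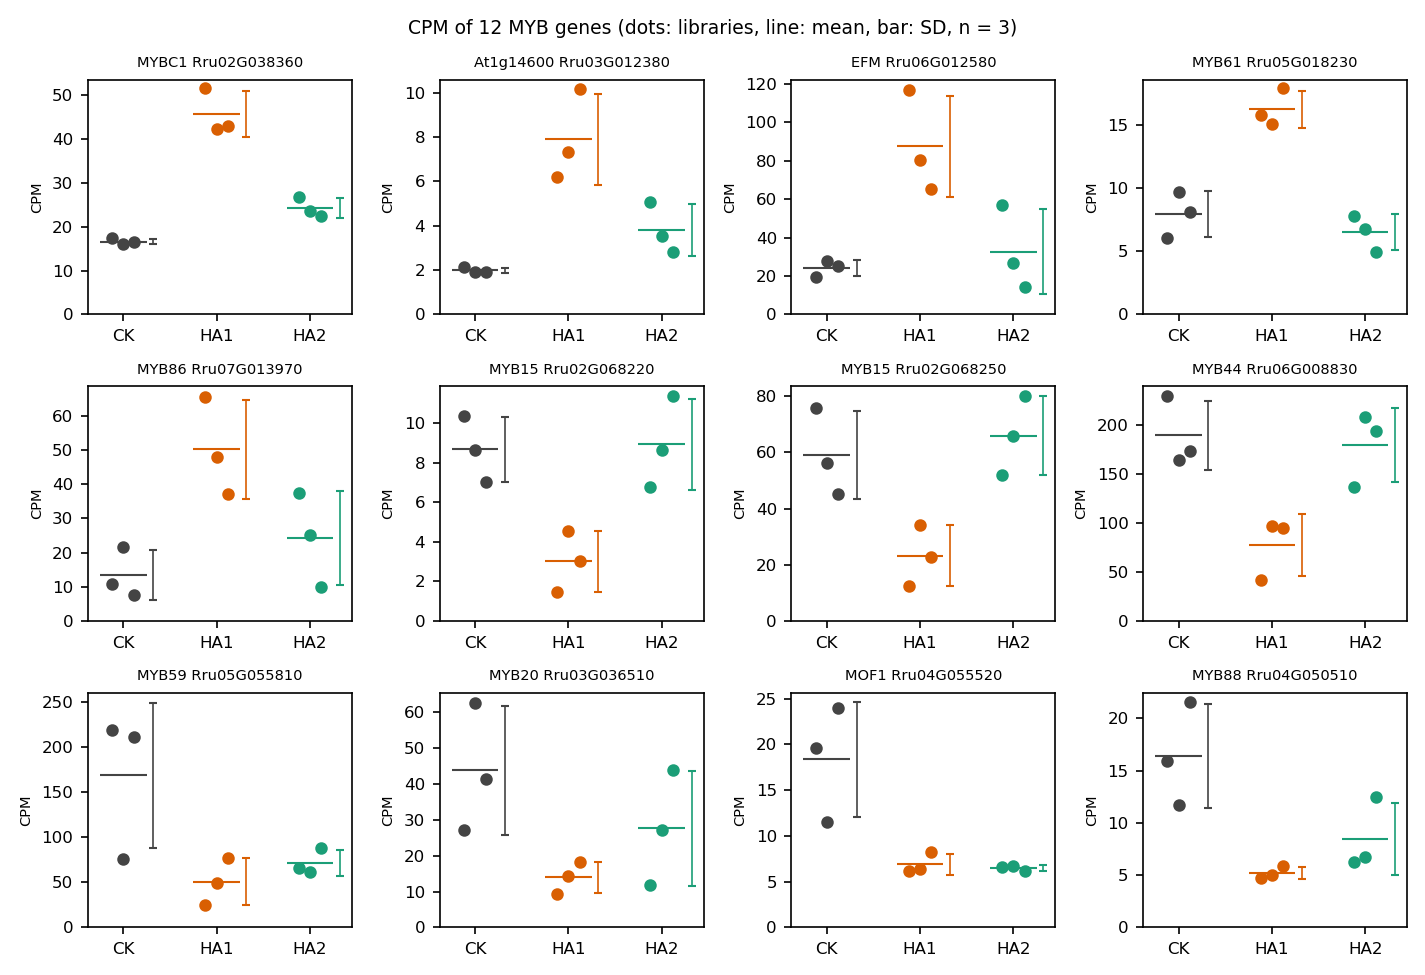
CPM of 12 MYB genes, chosen after their values were seen, in each library of CK, HA1 and HA2, with lines at the mean and bars for the SD (n = 3); each panel has its own axis from 0. MYBC1 stands at 42.3 to 51.7 CPM under HA1 against 16.1 to 17.3 under CK, and both MYB15 genes are lower in HA1 than in either other group.

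Among 8 cell cycle genes, 5 were tested, and 1 rose and 2 fell. MYB3R-1 and MYB3R-4 are known in Arabidopsis as regulators of genes of mitosis. The gene named MYB3R-4 (Rru06G056640), whose closest protein is described as MYB3R-1-like, lay at 11.4, 10.9 and 11 CPM under CK, 7.83, 4.81 and 5.65 under HA1 and 14.1, 9.48 and 12.6 under HA2. It fell by 0.86 ± 0.23 (adjusted p = 0.0321) without overlap between CK and HA1. The gene named MYB3R-1 (Rru07G001890), whose closest protein is described as myb-like protein L, lay at 6.54, 4.20 and 7.64 CPM under CK, 14.4, 12.6 and 9.44 under HA1 and 5.31, 4.83 and 6.19 under HA2. It rose by 0.99 ± 0.27 (adjusted p = 0.0328), and its HA1 libraries were above all others. Scaled by total count this was 0.68 and did not pass (adjusted p = 0.139). MYB88 (Rru04G050510), a partner of MYB124 in the divisions of the Arabidopsis stomatal lineage, lay at 15.9, 11.7 and 21.6 CPM under CK, 4.75, 5.06 and 5.88 under HA1 and 6.26, 6.74 and 12.4 under HA2. It fell by 1.65 ± 0.32 (adjusted p = 0.0145), and CK and HA1 did not overlap. Of these 3 calls, 0 were kept on leaving out CK replicate 1 or 3 or HA1 replicate 2, 1 on leaving out HA1 replicate 1 and 2 on leaving out HA1 replicate 3 or CK replicate 2, with adjusted p up to 0.105.

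In the secondary wall group 10 of 12 genes were tested, and 1 rose and 1 fell. MYB61 (Rru05G018230), known in Arabidopsis for xylem, stomatal aperture and root branching, lay at 6.03, 9.69 and 8.09 CPM under CK, 15.7, 15.1 and 17.9 under HA1 and 7.80, 6.74 and 4.97 under HA2. Its HA1 libraries lay above all others. It rose by 1.03 ± 0.24 (adjusted p = 0.0212), or by 0.75 scaled by total count, and its closest protein is described as MYB86-like. MYB20 (Rru03G036510), an Arabidopsis activator of lignin and phenylalanine synthesis, lay at 27.2, 62.7 and 41.4 CPM under CK, 9.40, 14.2 and 18.1 under HA1 and 11.9, 27.2 and 43.8 under HA2. It fell by 1.65 ± 0.48 (adjusted p = 0.0407), with HA1 below all CK libraries and HA2 spread across both. MYB52 (Rru06G029690) is named after another wall regulator, and its closest protein is described as MYB73-like. It was below CK in every HA1 and HA2 library, at 8.90, 6.43 and 10.2 CPM under CK, 5.68, 6.20 and 5.97 under HA1 and 5.66, 5.02 and 5.36 under HA2, but did not pass (adjusted p = 0.105 and 0.151). The calls of MYB61 and MYB20 ended without CK replicate 1, CK replicate 3 or any 1 of the HA1 libraries, with adjusted p up to 0.123, and 1 was kept without CK replicate 2 or HA2 replicate 2. Among 115 tested genes of lignin and general phenylpropanoid synthesis, 7 rose and 10 fell, with a median log2 fold change of -0.38. Those that fell included trans-cinnamate 4-monooxygenase (Rru05G065420), at 0.88 ± 0.19 below CK, and those that rose cytochrome P450 84A1 (Rru02G014750), at 1.34 ± 0.21 above CK, and laccase-15 (Rru06G024960), at 1.84 ± 0.57 above CK. The summed level of the list was 5979.6, 5145 and 4864 CPM under CK, 5149.8, 5711 and 6436 under HA1 and 6379, 8309.7 and 4424 under HA2, and the 3 groups overlapped.

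The group placed by name alone as phenylpropanoid repressors, 10 tested of 11, had 1 gene that rose and 2 that fell. The second MYB3 gene (Rru07G001830) lay at 16.1, 7.88 and 9.83 CPM under CK, 5.68, 5.24 and 3.85 under HA1 and 5.89, 4.08 and 5.19 under HA2, below CK in both treated groups. It fell by 1.20 ± 0.30 under HA1 (adjusted p = 0.0277). A pair of genes was described as Myb-related proteins of snapdragon, the first after protein 308, which represses phenolic acid and lignin synthesis. The first (Rru06G001960) lay at 12.8, 9.13 and 15.1 CPM under CK, 5.27, 4.75 and 7.21 under HA1 and 11, 9.51 and 8.60 under HA2, and fell by 1.10 ± 0.25 (adjusted p = 0.0202). The other (Rru07G045830) lay at 8.56, 11.5 and 13.0 CPM under CK, 25.1, 24.4 and 34.6 under HA1 and 31.7, 21.8 and 8.14 under HA2, and rose by 1.35 ± 0.42 (adjusted p = 0.0496). CK and HA1 did not overlap in either, and HA2 replicate 3 of Rru07G045830 lay below all CK libraries while HA2 replicates 1 and 2 lay above them. The call of Rru07G045830 also ended with a second scaling (RLE), with no filter on low counts and with total count scaling. Of these 3 calls, 0 were kept without CK replicate 1 or 3 or HA1 replicate 1 or 2, with adjusted p up to 0.156, 1 without HA1 replicate 3 and 2 without CK replicate 2 or HA2 replicate 2.

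The abundant MYB3 gene (Rru01G036890) spread too widely to pass. It lay at 823, 396 and 251 CPM under CK, 94.8, 196 and 327 under HA1 and 452, 413 and 113 under HA2, and its closest protein is described as MYB5 of Rosa rugosa. The highest value was over every other library and CK and HA1 overlapped (-1.25 ± 0.64, adjusted p = 0.18). Flavonoid synthesis enzymes summed to 4704, 2710 and 1429 CPM under CK, 1879.7, 1508 and 1274 under HA1 and 3548, 2500 and 783 under HA2. CK replicate 1 was the highest library and HA2 replicate 3 the lowest of its group in both, while the HA1 libraries stood in opposite order. Of 27 tested flavonoid enzymes, 0 rose and 3 fell in HA1, all of them described as flavonoid 3'-monooxygenase, with a median log2 fold change of -1.01. MYB4 (Rru05G004850), named after a rice protein, lay at 0.340, 0.765 and 0.141 CPM under CK, 3.79, 4.24 and 2.78 under HA1 and 11.2, 11 and 0.268 under HA2. It was higher in all HA1 libraries than in CK but did not pass by edgeR (3.13 ± 1.08, adjusted p = 0.0672). DESeq2 did call it in HA1 against CK (adjusted p = 0.00468), as did the authors' deposited result. HA2 replicate 3 of MYB4 lay within the CK range.

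Of 8 genes of the endodermis and suberin group, 6 were tested and 0 passed, with a median log2 fold change of 0.58 under HA1 against CK. MYB36 (Rru04G015690), known in Arabidopsis as the switch for Casparian strip formation, lay at 6.33, 14.7 and 9.45 CPM under CK and 32.4, 13.1 and 17.5 under HA1. MYB93 (Rru02G027370), an Arabidopsis regulator of lateral roots, lay at 13.1, 17.8 and 16.0 CPM under CK and 19.8, 20.3 and 25.2 under HA1. MYB39 (Rru07G028500), an Arabidopsis regulator of suberin, lay at 0.679, 2.04 and 1.74 CPM under CK and 2.60, 4.03 and 5.34 under HA1. The values of MYB93 and MYB39 did not overlap and those of MYB36 did, with adjusted p of 0.202, 0.105 and 0.159. Of 17 tested suberin and endodermis genes outside the family, 1 rose and 0 fell, with a median of 0.14. The cuticle group of 10 genes had 2 tested and 0 called. In it, MYB106 (Rru07G004660) lay at 0.573, 5.95 and 0.588 CPM under CK and 5.48, 7.79 and 4.48 under HA1, which overlapped through CK replicate 2.

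The development group had 8 tested genes of 19, and 1 rose and 1 fell. MYB59 (Rru05G055810), known in Arabidopsis for root growth and for potassium and nitrate transport, lay at 219, 76.1 and 211 CPM under CK, 25.0, 49.9 and 76.9 under HA1 and 65.7, 61.5 and 88.1 under HA2. It fell by 1.74 ± 0.48 under HA1 (adjusted p = 0.0343), although HA1 replicate 3 lay just above CK replicate 2. MYB86 (Rru07G013970) lay at 10.7, 21.6 and 7.69 CPM under CK, 65.6, 47.8 and 37.1 under HA1 and 37.4, 25.0 and 9.94 under HA2, and rose by 1.91 ± 0.52 (adjusted p = 0.0332). Its HA1 libraries lay above all CK libraries, and HA2 replicate 3 lay within the CK range. MYB82 (Rru02G003270), an Arabidopsis factor of trichome formation, lay at 1.30, 0.198 and 1.86 CPM under CK and 0.137, 0.0903 and 0.316 under HA1, and did not pass (adjusted p = 0.0529). The calls of MYB59 and MYB86 ended without CK replicate 1 or 3 or HA1 replicate 1 or 2, with adjusted p up to 0.111, and 1 was kept without HA1 replicate 3 or HA2 replicate 2. Among the unplaced genes, 11 of 27 were tested, and 1 rose and 1 fell. MYB1 (Rru06G062120), named after a Crocosmia protein, lay at 0.552, 0.595 and 0.188 CPM under CK, 4.47, 3.55 and 3.10 under HA1 and 4.79, 3.74 and 0.171 under HA2, and rose by 3.05 ± 0.93 (adjusted p = 0.0463). This was the largest fold change among the calls, and HA2 replicate 3 was at the level of the lowest CK library. The MYB123 gene Rru06G062030, named after a kiwifruit protein, lay at 7.09, 2.41 and 4.70 CPM under CK, 1.48, 1.93 and 1.35 under HA1 and 3.13, 1.47 and 1.27 under HA2, and fell by 1.58 ± 0.47 (adjusted p = 0.0429). The call of MYB1 was kept in 1 of the 9 settings that left out a library, that without HA2 replicate 3, and the call of MYB123 in 3, those without CK replicate 2, HA2 replicate 1 or HA2 replicate 3. In the other settings their adjusted p reached 0.145.

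Other MYB-domain proteins, whose descriptions lack the words used for the members, were listed separately. Of 34 tested, 1 rose and 9 fell in HA1 (against 10.9% and 10.3% of all genes), with a median log2 fold change of -0.77, beside -0.02 over all genes. The gene that rose was phosphate starvation response 1 (Rru06G038720), at 0.58 ± 0.15 (adjusted p = 0.0322). The largest fall was that of a gene described as ODORANT1 (Rru01G049530), with a log2 fold change of -3.12 ± 0.56. Those that fell also included 2 genes of CPC, a root-hair factor of Arabidopsis, at 2.07 ± 0.47 and 1.81 ± 0.46 below CK (Rru02G067210 and Rru01G035760). PHR1-like 2 (Rru04G027940) lay at 0.82 ± 0.15 below CK. Genes described as AS1, REVEILLE 1 and REVEILLE 5 fell too. The genes printed from this list were picked under no preset rule, with their values known. This list also held 1 gene described as GLABRA 3 among those that fell, a bHLH protein and not a MYB protein. In HA1 0 of the 34 were kept without CK replicate 1, where 0 of all genes passed.

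HA2 set against CK addresses how roots differ when 60% of the phosphorus is replaced. By edgeR 0 of the 88 members passed, where 1 of 25260 genes did (0.00396%). At an unadjusted p under 0.05 there were 19 members (21.6%, against 20.7% of all genes), and the values did not overlap in 11 (12.5%, against 21.8%). DESeq2 called 8 of 84 (9.52%, against 9.18%), among them MOF1, MYBC1, the second MYB3 gene and MYB4. The median log2 fold change was -0.04, beside -0.03 over all genes. Without HA2 replicate 3, 7 members passed (7.78%, against 7.11%), and without CK replicate 2 another set of 7 (7.69%, against 5.49%), with MOF1 in both. Of these, MYB62 (Rru07G007760) had a log2 fold change of 1.69 without HA2 replicate 3 (adjusted p = 0.0309), against 1.22 ± 0.59 with it. The authors' deposited table gave 0 members up and 1 down of 68 with an entry (where 1.81% of all genes with an entry were called).

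Some low genes were high in single HA2 libraries. MYB14 (Rru02G068260) lay at 0, 0.170 and 0.0706 CPM under CK, 0.525, 0.481 and 1.26 under HA1 and 18.3, 2.05 and 0.0974 under HA2. HA2 replicate 1 held most of its reads, and HA2 replicate 3 lay within the CK range (adjusted p = 0.134). PHL7 (Rru03G012860), named after a PHR1 relative and chosen after its values were seen, lay at 0.0425, 0 and 0 CPM under CK, 2.28, 0.812 and 0 under HA1 and 0.957, 0.0832 and 6.21 under HA2. Here HA2 replicate 3 was the highest library (adjusted p = 0.147). With CK at or near a count of 0 in both genes, no fold change is given.

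HA2 set against HA1 addresses how the larger replacement differs from the moderate one. By edgeR 0 of the 88 members passed, where 0 of 25260 genes did (0%). At an unadjusted p under 0.05 there were 17 members (19.3%, against 16.1%), and the values did not overlap in 25 (28.4%, against 24.3%), 14 higher in HA2 (15.9%, against 10.1%) and 11 lower (12.5%, against 14.1%). DESeq2 called 9 of 79 members (11.4%, against 4.2%). The median log2 fold change was 0.12, beside 0.03 over all genes. The lowest edgeR p-values belonged to MYBC1 at -0.91 ± 0.15, MYB61 at -1.32 ± 0.24, MYB3R-1 at -1.16 ± 0.27, MYB3R-4 at 0.98 ± 0.23 and MYB15 (Rru02G068250) at 1.51 ± 0.36, each with an adjusted p of 0.176 or 0.181. DESeq2 called all 5, with adjusted p from 0.0002 to 0.0114. This comparison shares the HA1 libraries with that of HA1 and CK, so the values of these genes in both are not independent. The authors' deposited table gave 1 member up and 2 down in HA2 against HA1 of 70 with an entry (where 1.05% of all genes with an entry were called).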

How the data were processed

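Per the file headers, the authors deposited raw counts and FPKM values for every gene in each library. Reads were paired, 150 bases long, and processed on the Biocloud platform, per the labels. Aligner, counter, genome build, strand setting and handling of reads shared by near copies were not given in the sources used here. Per the file headers, the other columns hold log2 fold changes and FDR values from DESeq2 with limits of 0.01 on the FDR and 2 on the fold. These other deposited values were copied for members and entered no test.

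Counts were fitted on all 9 libraries with edgeR 4.0.16 in R 4.3.3, using filterByExpr on the group, TMM scaling, 1 mean per group, the quasi-likelihood test, two-sided, and Benjamini-Hochberg adjustment over 25260 genes. SE was taken as the size of the log2 fold change divided by the root of F. Alternatives were DESeq2 1.42.0, RLE and total count scaling, no filter, at least 1 CPM in 3 libraries, only the 2 groups compared, a replicate block, calls of at least 1 in log2 size, and leaving out each library. DESeq2 without CK replicate 1 and without HA2 replicate 3 were added after the data were seen. Replicate numbers were not used as pairs. The members and lists were chosen with earlier results of these data known. Named genes were up to 10 calls per direction and comparison, the 3 members of each role group with the lowest p in HA1 against CK, the 10 with the highest mean FPKM and 5 by lowest p in comparisons with fewer than 5 calls. A selection of them is printed. The test was also run on simulated counts. Its first criterion, on the share of changed genes recovered, was not met for HA2 against HA1. The criteria were then replaced with the output known, so the run is not a preset check of the test. 0 of the member IDs matched the RefSeq gene table, so no coordinates or sequences are given. Tables and figures used Python 3.11.15, pandas 2.3.3 and matplotlib 3.10.9.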

Additional observations from a re-analysis of the deposited data

How the results depend on the processing

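The count of members past the threshold ranged from 0 to 31 in HA1 against CK over the settings that left out 1 library, from 0 to 7 in HA2 against CK and from 0 to 0 in HA2 against HA1. The median log2 fold change ranged from -0.35 to -0.23, from -0.16 to -0.02 and from 0.01 to 0.17. The share of all genes called also moved with the setting. In HA1 against CK it was 0% without CK replicate 1, where 0 members passed, and 27.1% without HA2 replicate 3, where 31 did (34.4%). In HA2 against CK it was 7.11% without HA2 replicate 3 and 5.49% without CK replicate 2, where 7 members passed in each. DESeq2 called 8 members in HA2 against CK (9.52%, against 9.18% of all genes) and 9 in HA2 against HA1 (11.4%, against 4.2%), where edgeR called 0. Without CK replicate 1 it called 3 and 8, and without HA2 replicate 3 it called 16 and 5. In HA1 against CK DESeq2 called 39 without HA2 replicate 3, and the other alternatives with all libraries gave 19 to 33 calls by edgeR or DESeq2. The 33 were by DESeq2 (37.9%, against 30.5% of all genes). For DESeq2 without a library, the share of all genes is not given, so those counts describe the settings only. With at least 1 CPM in 3 libraries the median in HA1 against CK was -0.41. Scaled by total count it was -0.65, and -0.36 in HA2 against CK, where the median of all genes moved to -0.31 and -0.33. The causes were not tested.

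With a replicate block, 23 members were called in HA1 against CK, 20 of the 22 among them, and 0 in each of the HA2 comparisons. The 2 lost were Rru06G062030 and Rru07G045830. The share of all genes called with the block is not given here. The deviations of same-numbered libraries correlated above 0.1 in 3 of 9 pairs, with a range of -0.30 to 0.32, and the best partner of a library carried its own number in 3 of 9 cases, so the numbers are not shown to mark pairs. Over 111 fold changes of the 37 named genes in 3 comparisons, none that was called in the main run changed sign in the alternatives run. A change was counted only for calls of the main run, so the HA2 comparisons, with 0 calls, could not show any. Signs did change there, as for MYB3 (Rru01G036890) in HA2 against CK, at -0.59 with all libraries and 0.02 without CK replicate 1. With 3 libraries per group, an exact permutation test of 1 gene cannot give a p under 0.1. Genes at or below 0.0903 CPM, the level of 3 counts, cannot be told from 0.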
